A study of Homo sapiens with 6 samples.

Results

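The genes described here are 10 parts of the NF-kB system: the 5 DNA-binding subunits NFKB1, NFKB2, RELA, RELB and REL, the inhibitors NFKBIA and NFKBIE, the kinase gene MAP3K14, the adaptor gene TRAF3 and the ubiquitin ligase gene BIRC3. They were chosen by symbol as parts of the pathway, with earlier results of these data known, and all 10 were present among the 34234 genes of the deposited counts and among the 17935 that had enough counts to be tested. RNA was sequenced from HCCLM3, an established liver cancer line of human origin known for its metastatic behaviour. A lentivirus delivered the shcontrol hairpin in 3 libraries and the shATXN7L3 hairpin, which targets the deubiquitinase-module subunit ATXN7L3, in 3. The virus-containing medium was replaced after 16 hours in both groups; the time from there to harvest is not given in the sources used here, and no cytokine or other NF-kB stimulus is named for either group. Whether replicates came from separate cultures is not stated. The p-values therefore reflect the scatter among these 6 libraries, which may be technical, and each group rests on a single hairpin name.

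NF-kB factors are dimers of proteins that share a Rel homology domain. In the canonical arm, dimers of RELA or REL with p50, the processed product of NFKB1, are held in the cytoplasm by the IkB proteins encoded by NFKBIA and NFKBIE until the IKK complex marks these for destruction. In the noncanonical arm, the kinase NIK, product of MAP3K14, drives processing of the NFKB2 product p100 to p52, the partner of RELB. In resting cells a complex of TRAF3, TRAF2 and the inhibitor-of-apoptosis proteins BIRC2 and BIRC3 keeps NIK low by ubiquitination. Much of this control acts on proteins, which RNA counts do not measure. NFKB2, RELB, NFKBIA, NFKBIE and BIRC3 are also textbook target genes of NF-kB. Here NFKB1, RELA, REL, NFKBIA and NFKBIE were taken as the canonical arm and NFKB2, RELB, MAP3K14, TRAF3 and BIRC3 as the noncanonical arm.

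NF-kB dimers bind a run of 10 bases, the kB decamer, and the sequences below show where its consensus stands in the promoters of the members. The RefSeq promoter windows (GRCh38.p14, 250 bases before to 50 after a start site) held 12 windows for 8 of the 10 genes, all but RELB and NFKBIE. Both strands were searched for the consensus GGGRNNYYCC, where R is A or G, Y is C or T and N is any base. A match was found for 6 of these 8 genes: NFKB1, REL, NFKBIA, NFKB2, TRAF3 and BIRC3. At least 1 match was present in 11.3% of all 35116 windows, and 13.3% of the 27305 genes had at least 1. The stretches run 5′ to 3′ on the strand of the gene, with the decamer in capitals. A stretch of BIRC3 is shown whole because it holds 2 matches, 199 and 135 bases before the start site, both read on the opposite strand; it spans chr11:102317275-102317368 (+ strand).
BIRC3: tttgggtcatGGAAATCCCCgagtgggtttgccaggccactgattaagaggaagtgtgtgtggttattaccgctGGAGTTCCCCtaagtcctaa
For NFKB2, with 3 start sites in the table, the stretches shown lie 107 and 78 bases before 1 start site (chr10:102394461-102394490 and chr10:102394490-102394519) and 21 bases before another (chr10:102395674-102395703), all on the + strand. These 3 decamers fall inside annotated exons of NFKB2. The match at 107 reads on both strands and overlaps a further match shifted by 1 base, and a match 176 bases before a start site is not printed.
NFKB2 at 107: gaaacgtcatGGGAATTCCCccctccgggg
NFKB2 at 78: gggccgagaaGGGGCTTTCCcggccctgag
NFKB2 at 21: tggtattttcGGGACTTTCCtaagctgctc
The exact letters GGGACTTTCC, which are also those of the kB site in the immunoglobulin kappa enhancer, were present in 0.191% of all windows. For comparison, stretches of 3 members whose mRNA did not pass the test are from NFKB1 (chr4:102501300-102501329, + strand, 49 bases before a start site), NFKBIA (chr14:35404811-35404840, - strand, 81 bases before) and TRAF3 (chr14:102777406-102777435, + strand, 33 bases before). The NFKBIA decamer, like those of BIRC3, fits the consensus when read on the strand opposite to the gene.
NFKB1: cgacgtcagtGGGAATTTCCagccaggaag
NFKBIA: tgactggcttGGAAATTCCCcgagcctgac
TRAF3: cgggcgcgccGGGGATTTCCagcgcgcgag
The windows of RELA and MAP3K14 held 0 matches. Matches thus stood in promoters of members that rose and of members that did not pass the test, and a match is a description of letters, not of binding.

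The libraries held 22376867 to 23915783 counts. Levels are CPM, the counts of a gene relative to its library total scaled by the TMM method, and groups were compared with the quasi-likelihood test of edgeR, with Benjamini-Hochberg adjustment over all 17935 genes and a threshold of 0.05. ATXN7L3 mRNA stood at 36.4, 37.5 and 37.5 CPM in shcontrol and at 20.6, 20.5 and 19.5 CPM in shATXN7L3, for a log2 fold change of -0.88 ± 0.056 (± standard error, SE; edgeR adjusted p = 6.69e-10). Over all tested genes 24.2% were called, 12.2% higher and 12% lower in shATXN7L3, and 38.3% had groups of libraries that did not overlap. With scaling by library size alone, called genes were 64.8% higher rather than 50.4%. Of the hepatocyte and carcinoma markers, ALB (65.2), HNF4A (43.5), APOB (42) and SERPINA1 (18.6) had the highest mean CPM in shcontrol (n = 3), whereas AFP (2.91), TTR (0.758) and APOA1 (0.418, too low to be tested) were low.

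Of the 10 members, 3 rose in shATXN7L3 and 0 fell, where 12.2% of all tested genes rose and 24.2% changed. In 5 of the 10 the groups of libraries did not overlap, each with shATXN7L3 above, as was the case for 19.8% of all tested genes. All 3 that rose were listed in the noncanonical arm: NFKB2, the precursor of p52, RELB, its dimer partner, and BIRC3, which encodes cIAP2. Their increases were 1.67-fold, 1.5-fold and 1.62-fold. The other members of that arm, MAP3K14 and TRAF3, did not pass the test, and of the 5 canonical members 0 passed (1 at an unadjusted p under 0.05, NFKBIE). The median log2 fold change was 0.58 over the 5 noncanonical members and -0.0018 over the 5 canonical ones, beside 0.01 over all tested genes. Leaving out shcontrol replicate 3 gave medians of 0.50 and 0.10. BIRC3, also a target gene, was placed in the noncanonical arm as part of the TRAF3 complex, with earlier results known. The counts and medians by arm depend in part on that choice.

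**Figure D1:**
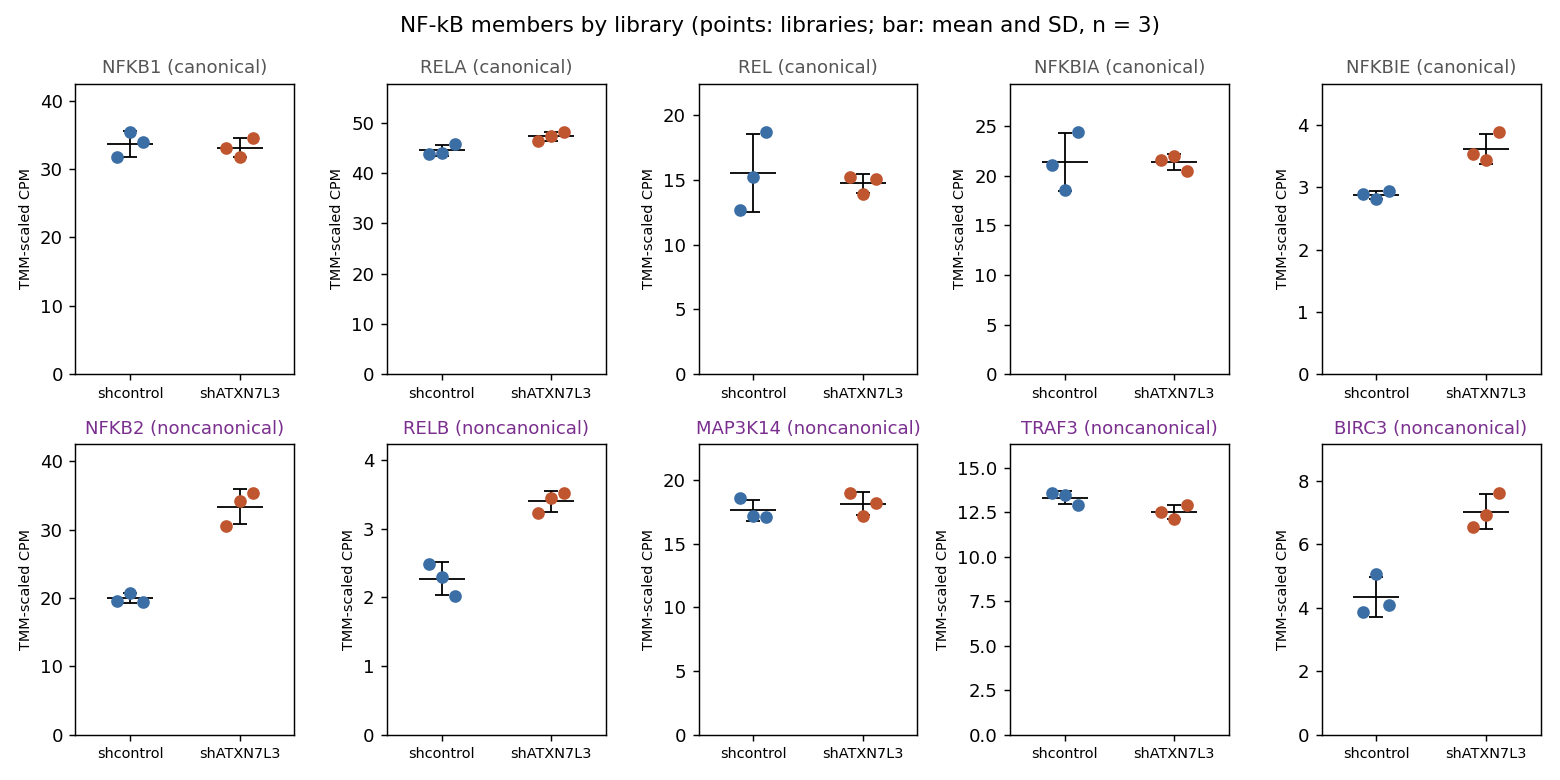
TMM-scaled CPM (y axis, from 0, a scale of its own in each panel) of the 10 members in the shcontrol and shATXN7L3 libraries; points are libraries, bars the mean and SD of 3. The groups stand apart with shATXN7L3 above in NFKB2, RELB, BIRC3, NFKBIE and RELA, the gap being smallest in RELA (45.8 against 46.4 CPM).

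NFKB2 (chromosome 10, 102394110 to 102402529, + strand) had the largest change of the 10 on the log2 scale. Its level was 19.6, 20.8 and 19.5 CPM in the shcontrol libraries (441, 451 and 443 counts) and 30.5, 34.2 and 35.4 CPM in the shATXN7L3 libraries (710, 824 and 846 counts). Every shATXN7L3 library lay above every shcontrol library, and the lowest of them was replicate 1. This gave a log2 fold change of 0.74 ± 0.065 (SE), with a 95% interval of 0.61 to 0.88 (edgeR adjusted p = 5.91e-08). The change was higher than that of 98.1% of tested genes. No exon of NFKB2 overlapped an exon of another gene in the deposited annotation, and the same held for 7 further members, the exceptions being REL and MAP3K14.

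RELB (chromosome 19, 45001430 to 45038198, + strand) was the least counted member. It had 56, 50 and 46 counts in shcontrol, or 2.49, 2.3 and 2.02 CPM. In shATXN7L3 it had 75, 83 and 84 counts, or 3.23, 3.44 and 3.52 CPM. The groups did not overlap, and the 95% interval was wide for this depth. Its log2 fold change was 0.58 ± 0.150 (SE), with an interval of 0.27 to 0.89 (edgeR adjusted p = 0.00727). DESeq2 gave an adjusted p of 0.0461, the highest over the 14 alternative settings, of which 0.00355 was the lowest.

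BIRC3 (chromosome 11, 102317450 to 102339403, + strand) encodes an inhibitor-of-apoptosis protein with ubiquitin ligase activity that acts in tumour necrosis factor receptor complexes and on NIK. Its level was 3.87, 5.06 and 4.09 CPM in shcontrol (87, 110 and 93 counts). It was 6.54, 6.93 and 7.62 CPM in shATXN7L3 (152, 167 and 182 counts). The highest control library, replicate 2, stayed below the lowest shATXN7L3 library. On the log2 scale BIRC3 rose by 0.70 ± 0.120 (SE), with a 95% interval of 0.45 to 0.95 (edgeR adjusted p = 2.20e-04), and it ran from 0.62 to 0.82 when single libraries were left out.

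**Figure D2:**
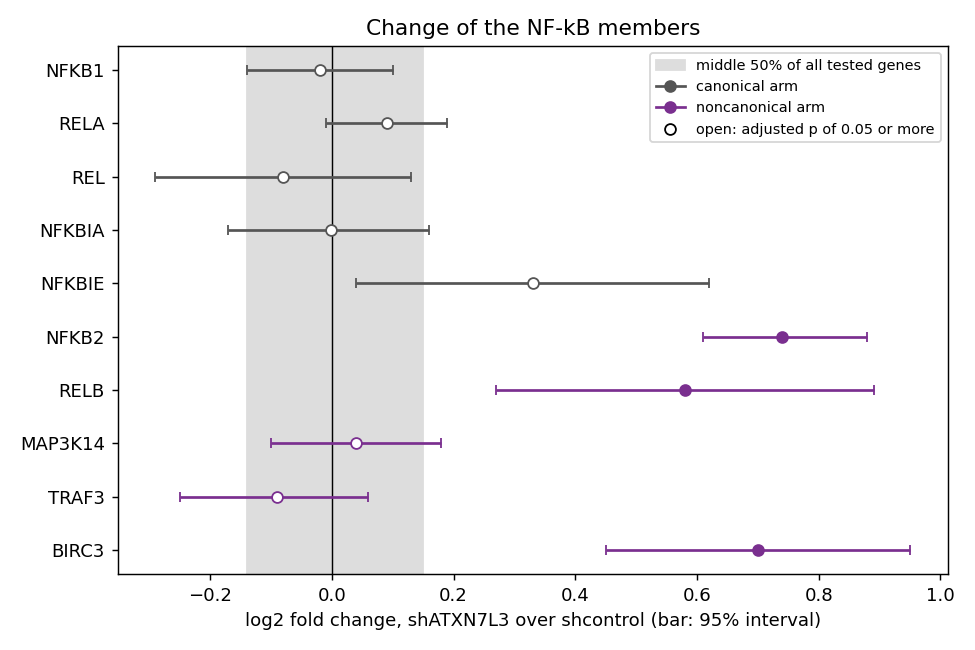
Log2 fold change of each member, shATXN7L3 over shcontrol (x axis), with its 95% interval; filled points passed the test and the grey band spans the middle 50% of all tested genes (-0.14 to 0.15). The intervals of NFKB2 (0.61 to 0.88) and NFKB1 (-0.14 to 0.10) do not meet.

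MAP3K14 and TRAF3, the genes of NIK and of the adaptor that holds it low, did not pass the test. MAP3K14 (chromosome 17, 45263121 to 45317040, - strand) stood at 18.6, 17.2 and 17.1 CPM in shcontrol and 19, 17.2 and 18.2 CPM in shATXN7L3, and the groups overlapped. Its log2 fold change was 0.04 ± 0.068 (SE), with a 95% interval of -0.10 to 0.18 (edgeR adjusted p = 0.71). An antisense gene, MAP3K14-AS1, overlaps 12.1% of its exon bases on the opposite strand, and as no source used here states whether counting used strand, reads of that overlap cannot be told apart. TRAF3 (chromosome 14, 102777476 to 102911500, + strand) stood at 13.6, 13.5 and 12.9 CPM in shcontrol and 12.5, 12.1 and 12.9 CPM in shATXN7L3. The libraries numbered 3 in the 2 groups were both at 12.9 CPM, so the groups met. TRAF3 had a log2 fold change of -0.09 ± 0.073 (SE), with a 95% interval of -0.25 to 0.06 (edgeR adjusted p = 0.394). These intervals are narrow enough that changes of the size of NFKB2 lie outside them.

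Among the canonical subunits, RELA (chromosome 11, 65653596 to 65663094, - strand), encodes a subunit with a strong transactivation domain. It stood at 43.9, 44 and 45.8 CPM in shcontrol and 46.4, 47.5 and 48.2 CPM in shATXN7L3. The groups did not overlap, as was the case for 38.3% of tested genes, and the difference was small. Its log2 fold change was 0.09 ± 0.050 (SE), with a 95% interval of -0.01 to 0.19 (edgeR adjusted p = 0.215). NFKB1 (chromosome 4, 102501329 to 102617302, + strand), the precursor gene of p50, stood at 31.7, 35.4 and 33.9 CPM in shcontrol and 33, 31.8 and 34.6 CPM in shATXN7L3. The groups overlapped. For NFKB1 the log2 fold change was -0.02 ± 0.058 (SE; 95% interval -0.14 to 0.10, edgeR adjusted p = 0.82), and its sign changed with scaling by library size alone (0.02) and without shATXN7L3 replicate 2 or shcontrol replicate 2 (0.01 each).

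REL (chromosome 2, 60881521 to 60931610, + strand), which encodes c-Rel, varied most among control libraries, with 12.7, 15.2 and 18.7 CPM, a coefficient of variation of 19.5%. The shATXN7L3 libraries lay inside that range, at 15.2, 13.9 and 15.1 CPM. REL's log2 fold change was -0.08 ± 0.101 (SE; 95% interval -0.29 to 0.13, edgeR adjusted p = 0.64). Without shcontrol replicate 3 it was 0.08 (adjusted p = 0.579). A noncoding gene, RP11-373L24.1, shares 5702 exon bases with REL on the same strand, 50.7% of its exon length, so the value of REL is uncertain to that extent.

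Of the inhibitors, NFKBIA (chromosome 14, 35401511 to 35404749, - strand), which encodes IkB alpha, a feedback inhibitor that NF-kB itself induces, did not pass the test. It stood at 21.1, 18.6 and 24.4 CPM in shcontrol and 21.6, 22 and 20.5 CPM in shATXN7L3. The control libraries spread more widely than the shATXN7L3 libraries, which lay between them. NFKBIA had a log2 fold change of -0.0018 ± 0.079 (SE; 95% interval -0.17 to 0.16, edgeR adjusted p = 0.99), and without shcontrol replicate 3 it was 0.10 (adjusted p = 0.353). NFKBIE (chromosome 6, 44258166 to 44265788, - strand), which encodes IkB epsilon, stood at 2.89, 2.81 and 2.94 CPM in shcontrol and 3.53, 3.44 and 3.89 CPM in shATXN7L3. Its groups did not overlap, but it rested on 61 to 93 counts per library. Its log2 fold change was 0.33 ± 0.137 (SE; 95% interval 0.04 to 0.62) and did not pass the test (unadjusted p = 0.0267, edgeR adjusted p = 0.0908, between 0.0547 and 0.31 over the alternative settings).

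Levels of different genes were set side by side per kilobase of annotated exon, which can differ from the length of the transcripts expressed. NFKBIA and RELA led in shcontrol at 9 ± 1.22 and 8.16 ± 0.201 CPM per kb (mean ± SD, n = 3), and these 2 overlapped between libraries. NFKB1 followed at 5.38 ± 0.298, NFKB2 at 4.45 ± 0.159 and MAP3K14 at 3.01 ± 0.141 CPM per kb. TRAF3 (1.61 ± 0.0485), REL (1.38 ± 0.27) and NFKBIE (1.12 ± 0.0265) followed, and neighbours in this order overlapped. RELB (0.748 ± 0.0775) and BIRC3 (0.577 ± 0.0847 CPM per kb) were lowest and overlapped. In shATXN7L3 the order differed in that NFKB2, at 7.44 ± 0.565 CPM per kb, stood above NFKB1 at 5.29 ± 0.223, with no overlap between them. NFKBIE (1.4 ± 0.0924) and REL (1.31 ± 0.0619) also changed places, within their overlap, and RELB and BIRC3 were still lowest at 1.12 ± 0.0497 and 0.935 ± 0.0727 CPM per kb.

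Single genes of the 2 arms were set against each other within each library as ratios of mRNA levels per kb. NFKB2 over NFKB1, the genes of the 2 precursor proteins, was 0.863, 0.818 and 0.802 in shcontrol and 1.29, 1.5 and 1.43 in shATXN7L3. Per kb, NFKB2 was thus below NFKB1 in each control library and above it in each shATXN7L3 library. This order depends on the annotated exon lengths, 4484 bases for NFKB2 and 6257 for NFKB1. By CPM alone, NFKB2 was below NFKB1 in shATXN7L3 replicate 1 (30.5 against 33 CPM). It was above NFKB1 in shATXN7L3 replicates 2 (34.2 against 31.8 CPM) and 3 (35.4 against 34.6 CPM). RELB over RELA was 0.102, 0.0942 and 0.0794 in shcontrol and 0.125, 0.13 and 0.131 in shATXN7L3, so RELB was the scarcer gene throughout. RELB over NFKB2, the 2 partners of the noncanonical dimer, was 0.168 ± 0.0175 and 0.151 ± 0.00491 (mean ± SD, n = 3 each), with overlapping groups. These ratios need no scaling between libraries, and no test was made of them. They compare mRNA of single genes and do not measure the activity of either arm.

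**Figure D3:**
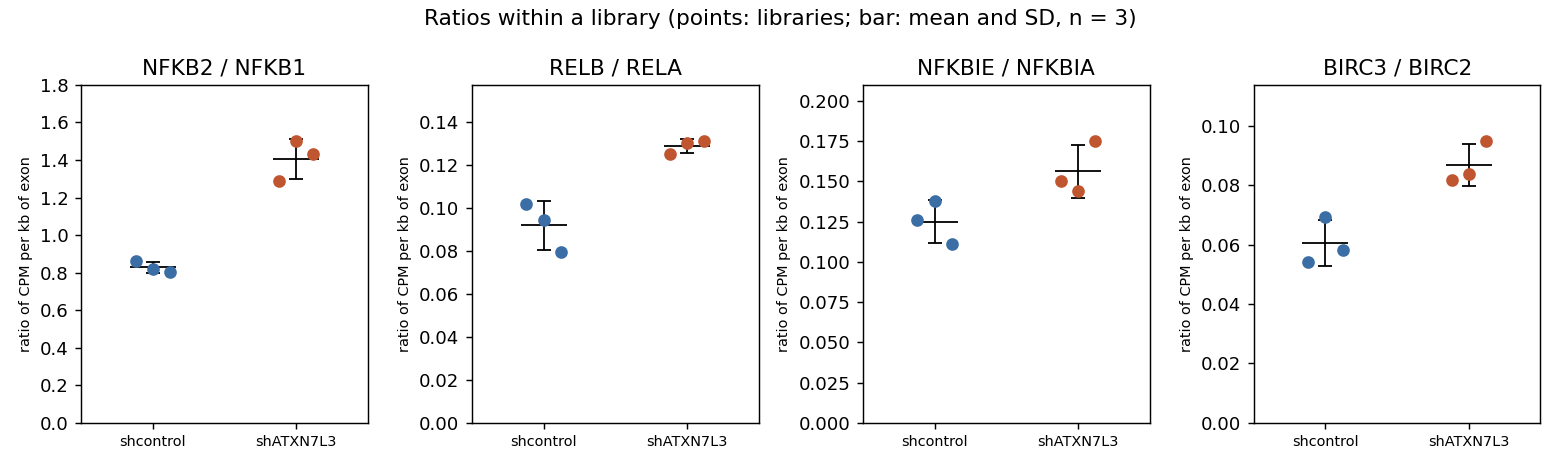
Ratios of CPM per kb of exon within each library (y axis, from 0) for NFKB2 over NFKB1, RELB over RELA, NFKBIE over NFKBIA and BIRC3 over BIRC2; points are libraries, bars the mean and SD of 3. All 4 ratios drawn are higher in each shATXN7L3 library than in each shcontrol library. The groups lie closest for NFKBIE over NFKBIA (0.138 against 0.144), genes that did not pass the test. RELB over NFKB2, not drawn, had overlapping groups. Among single genes, 38.3% of those tested had groups that did not overlap. The ratio of NFKB2 over NFKB1 passes from 0.828 to 1.41 on average.

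BIRC3 lies 7.8 kb from its paralogue BIRC2 on chromosome 11, and BIRC2, the gene of cIAP1, was the more abundant of the 2 per kb. BIRC2 rose as well, from 43.1, 44.1 and 42.2 CPM to 48.2, 49.9 and 48.4 CPM, a change of 0.18 ± 0.049 (SE) in log2 with an edgeR adjusted p of 0.011, and its call ended without shATXN7L3 replicate 2 (adjusted p = 0.0596). BIRC3 over BIRC2, per kb, was 0.0541, 0.0693 and 0.0583 in shcontrol and 0.0817, 0.0837 and 0.0948 in shATXN7L3. Of the 6 tested genes of the family outside BIRC3, BIRC2 alone rose and 0 fell, with log2 fold changes of 0.01 for XIAP and -0.04 for BIRC5. Of 9 tested genes near BIRC3, 4 rose and 1 fell, beside 12.2% and 12% of all tested genes. The fall was that of TMEM123, from 603 ± 11.5 to 486 ± 2.82 CPM (-0.31 ± 0.041 SE, edgeR adjusted p = 1.08e-05), and YAP1, a transcriptional coactivator, rose from 121 ± 8.1 to 140 ± 3.43 CPM (0.21 ± 0.050 SE, edgeR adjusted p = 0.00407). BIRC3, at 0.70, had a larger log2 fold change than each of these 9. MMP7, a matrix metalloprotease, stood at 0.31, a call that ended with DESeq2 (adjusted p = 0.193), and the estimate was 0.16 without shcontrol replicate 3.

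Upstream of the members, the medians of the lists lay between -0.09 and 0.07. The calls in these short lists stand beside 12.2% of all tested genes that rose and 12% that fell, and no list was tested as a set. Of 8 tested receptors and receptor-complex genes of the noncanonical arm, 3 rose and 0 fell (median 0.07): BIRC2, TNFRSF12A and TNFRSF11A. TNFRSF11A, the receptor RANK, stood at 0.35 (edgeR adjusted p = 0.0168) and lost its call with DESeq2 (0.0661) and without shATXN7L3 replicate 2 (0.0831) or 3 (0.0858) or shcontrol replicate 2 (0.0545) or 3 (0.0525). TNFRSF12A, the receptor Fn14, rose from 54.2 ± 7.41 to 67.7 ± 1.98 CPM (log2 fold change 0.32 ± 0.070 SE, edgeR adjusted p = 0.00198); without shcontrol replicate 3 it was 0.21. LTBR, the lymphotoxin beta receptor, stood at 317 ± 19.3 and 314 ± 8.79 CPM (-0.01, edgeR adjusted p = 0.881). Of 6 tested canonical receptors, 2 fell and 0 rose (median -0.08). TNFRSF1A, the main receptor for tumour necrosis factor, fell from 396 ± 25.6 to 331 ± 8.28 CPM (-0.26 ± 0.048 SE, edgeR adjusted p = 4.67e-04). EDAR, the ectodysplasin receptor, averaged 0.688 CPM in shcontrol against 0.295 CPM (-1.21, edgeR adjusted p = 0.0156). It lost its call with DESeq2 (0.0985) and without shATXN7L3 replicate 2 (0.0734) or shcontrol replicate 2 (0.077).

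Of 23 canonical signalling intermediates, 5 rose and 1 fell (median 0.05), beside 12.2% and 12% of all tested genes. BCL10, an adaptor that works with the paracaspase MALT1, rose from 7.31 ± 0.51 to 10.3 ± 0.332 CPM (0.50 ± 0.089 SE, edgeR adjusted p = 3.27e-04), whereas MALT1 stood at -0.10 and did not pass (edgeR adjusted p = 0.332). RBCK1, a subunit of the linear ubiquitin ligase LUBAC, rose from 31.4 ± 1.11 to 38.3 ± 0.94 CPM (0.28 ± 0.054 SE, edgeR adjusted p = 5.64e-04). UBE2N, a ubiquitin-conjugating enzyme that forms K63 chains, fell by 0.21 in log2 (edgeR adjusted p = 0.00727, and 0.0666 without shATXN7L3 replicate 3). Of its exon bases, 39.5% overlap NUDT4 on the opposite strand. NUDT4 averaged 90 CPM in shcontrol and 68.8 CPM in shATXN7L3. As the strand setting is not given, reads of that overlap cannot be told apart, and their part in the value of UBE2N was not tested. Of 6 genes listed for the SCF ligase that ubiquitinates IkB proteins, its ubiquitin-conjugating enzyme UBE2D3 included, 2 fell and 0 rose (median -0.09). The fall of FBXW11, a substrate receptor of that ligase, was from 34.2 ± 0.543 to 26.2 ± 0.793 CPM (-0.38 ± 0.055 SE, edgeR adjusted p = 3.33e-05), beside -0.05 for its paralogue BTRC (edgeR adjusted p = 0.712). UBE2D3, a ubiquitin-conjugating enzyme, stood at -0.16 (edgeR adjusted p = 0.0173) and lost its call with library size alone (0.0663) and without shATXN7L3 replicate 1 (0.0623), 2 (0.0734) or 3 (0.0726) or shcontrol replicate 2 (0.073).

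Within the IKK complex and the related kinases, 2 of 8 rose and 1 fell (median 0.02), beside 12.2% and 12% of all tested genes. Among these kinase-list calls, 2 were less firm. TBKBP1, an adaptor of the kinase TBK1, rose from 2.84 ± 0.184 to 4.21 ± 0.462 CPM (0.57 ± 0.140 SE, edgeR adjusted p = 0.0052). IKBKB, the gene of the canonical IKK beta, stood at 0.20 (edgeR adjusted p = 0.0309) and lost its call with DESeq2 (0.0745) and without shATXN7L3 replicate 1 (0.0704) or 3 (0.159) or shcontrol replicate 1 (0.0612) or 2 (0.164). TBK1 stood at -0.17 (edgeR adjusted p = 0.0412) and lost its call with DESeq2 (0.0859), with scaling by library size alone (0.155), and without shATXN7L3 replicate 1 (0.0512), 2 (0.115) or 3 (0.195) or shcontrol replicate 2 (0.155) or 3 (0.0991). CHUK, the gene of IKK alpha, which NIK activates, did not pass (-0.04, edgeR adjusted p = 0.658), nor did the scaffold IKBKG (0.08, adjusted p = 0.231).

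Of 5 further IkB family genes, BCL3 alone passed (log2 fold change 0.15, median of the list -0.07), where 24.2% of all tested genes passed. BCL3, a nuclear IkB protein that binds p50 and p52, had an edgeR adjusted p of 0.0433. It exceeded 0.05 in 10 of 14 alternatives, among them DESeq2 (0.161), DESeq2 size factors (0.0504), upper-quartile factors (0.0533), no filter (0.086) and the replicate block (0.0563). It did so too without shATXN7L3 replicate 1 (0.0915), 2 (0.129) or 3 (0.113) and without shcontrol replicate 1 (0.091) or 2 (0.12), and it passed with library size alone, with limma voom, with the stricter filter and without shcontrol replicate 3. Of 14 negative regulators, 2 rose and 0 fell (median 0.02), beside 12.2% and 12% of all tested genes. CYLD, a deubiquitinase, stood at 0.20 (edgeR adjusted p = 0.0352) and lost its call with DESeq2 (0.102) and without shATXN7L3 replicate 1 (0.2) or 3 (0.0944) or shcontrol replicate 1 (0.108). COMMD1 stood at 0.28 (edgeR adjusted p = 0.0231) and lost it with DESeq2 (0.108) and without shATXN7L3 replicate 1 (0.0933) or 2 (0.0978) or shcontrol replicate 3 (0.0607). TNFAIP3, the feedback inhibitor A20, stood at -0.17 and did not pass (edgeR adjusted p = 0.282).

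**Figure D4:**
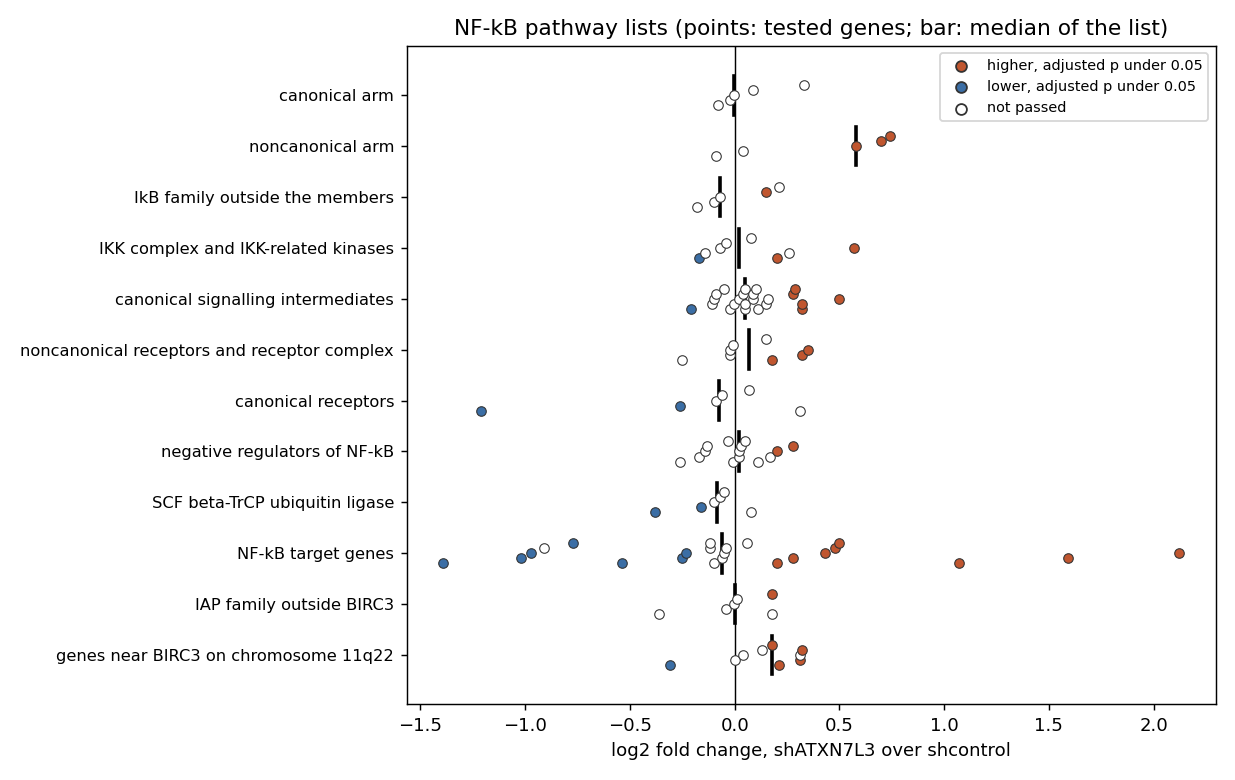
Log2 fold change (x axis) of every tested gene in the 2 arms and in 10 further lists (rows), among them the BIRC3 gene family and its chromosomal neighbours. Colour marks genes past the test and black bars the median of a list. A gene in more than 1 list, such as BIRC2, appears in each. The noncanonical arm has its median at 0.58, and the target genes extend to both sides, from -1.39 to 2.12.

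NF-kB target genes outside the 10 members moved in both directions. Of 34 genes listed, 29 were in the deposited counts and 23 had enough counts to be tested; 8 rose and 7 fell, where 12.2% of all tested genes rose and 12% fell, and their median was -0.06 beside 0.01 over all tested genes. IL1B, the cytokine interleukin 1 beta, rose from 0.67 ± 0.197 to 2.95 ± 0.183 CPM (2.12 ± 0.214 SE, edgeR adjusted p = 4.14e-07). Its counts were low, at 20, 11 and 14 in shcontrol and 71, 66 and 73 in shATXN7L3, which limits the size of its fold change. VCAM1 and PTGS2, an adhesion molecule and an inducible cyclooxygenase that were singled out after their values were seen, rose with log2 fold changes of 1.07 and 1.59 (edgeR, adjusted p = 6.56e-07 and 5.00e-06). CXCL5, a neutrophil chemokine, fell from 59.1 ± 3.79 to 29.2 ± 1.71 CPM (-1.02 ± 0.059 SE, edgeR adjusted p = 1.81e-10). CSF1, the macrophage growth factor, fell from 119 ± 12.6 to 60.5 ± 0.595 CPM, and LCN2, lipocalin 2, from 6.38 ± 0.219 to 2.43 ± 0.298 CPM (edgeR adjusted p = 4.66e-10 and 1.32e-07). ICAM1, a target often used as a readout, stood at 48.7 ± 4.4 and 50.8 ± 1.16 CPM and did not pass (edgeR adjusted p = 0.499).

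Genes whose levels closely followed each member that rose over the 6 libraries were named by Pearson's r of log2 CPM among 12310 genes. For NFKB2 they included SFXN3 (0.9986) and PRPF4 (0.9977), and 540 genes exceeded 0.95. For RELB they included COL6A2 (0.9986) and PLAUR (0.9980), and for BIRC3 they were HDAC9 (0.9970), CTD-2515O10.5 (0.9951) and FAM206A (0.9936). PRPF4 did not pass the test between groups (edgeR adjusted p = 0.137, and 0.0327 with library size alone). FAM206A passed at 0.0419 but not with DESeq2 (0.191), no filter (0.0799) or the replicate block (0.0557), nor without shATXN7L3 replicate 1 (0.087), 2 (0.0854) or 3 (0.131) or shcontrol replicate 1 (0.112) or 3 (0.0735). Among the members, NFKB2 gave 0.960 with RELB, 0.967 with BIRC3, 0.947 with NFKBIE and 0.886 with RELA of the canonical arm, and RELB with BIRC3 gave 0.903. With the other members of its own arm NFKB2 gave 0.249 (MAP3K14) and -0.741 (TRAF3). With the remaining canonical members it gave -0.115 (NFKB1), -0.193 (REL) and -0.055 (NFKBIA). These values describe 6 points in 2 groups that share their libraries, so any gene that differs between the groups with little spread scores high.

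Markers of hepatocytes and of other cell types differed between the groups as well. The 7 hepatocyte and carcinoma markers in the deposited counts summed to 164 to 186 CPM in shcontrol and 89.4 to 93.1 CPM in shATXN7L3. GPC3, also listed, was not in those counts. Of the markers, 6 of 6 tested fell, where 12% of all tested genes fell. AFP and TTR did not pass under every alternative (edgeR or DESeq2 adjusted p up to 0.113 and 0.153). Leukocyte markers summed to 93.4 to 112 CPM and 125 to 130 CPM, nearly all of it CD68 (100 and 122 CPM on average, called higher), of whose exon bases 81.7% overlap another gene on the same strand. ITGAM rose from 2.53 to 4.59 CPM (log2 0.85, edgeR adjusted p = 2.83e-04) and LYZ fell from 0.922 to 0.169 CPM (log2 -2.42, edgeR adjusted p = 1.47e-04). The other 7 of the 10 had too few counts to be tested, with PTPRC at 0.0921 to 0.293 CPM, CD3E at 0 to 0.0889 CPM, and MS4A1, AIF1 and CD2 at 0 in every shcontrol library. Fibroblast and stellate markers summed to 27.1 to 31.8 CPM and 8.26 to 9.37 CPM, chiefly LUM, while PDGFRB was at 0 to 0.046 CPM. Endothelial markers summed to 75.7 to 82.2 CPM and 73 to 75.1 CPM, a sum of opposite changes: PECAM1 fell from 43.7 to 28 CPM (log2 -0.64, edgeR adjusted p = 1.37e-07) and ESAM rose from 18.9 to 30.6 CPM (log2 0.69, edgeR adjusted p = 1.39e-06). KDR, at 15.5 and 15.3 CPM, did not pass (edgeR adjusted p = 0.917), and CDH5 was at 0 to 0.0879 CPM. Counts on mitochondrially encoded genes took 21.7% to 22.9% of each library, in ranges that overlapped between the groups. The part of these differences in the values of NFKB2, RELB and BIRC3 was not tested, and in bulk RNA a change in the share of cells that express a gene and a change per cell cannot be told apart.

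**Figure D5:**
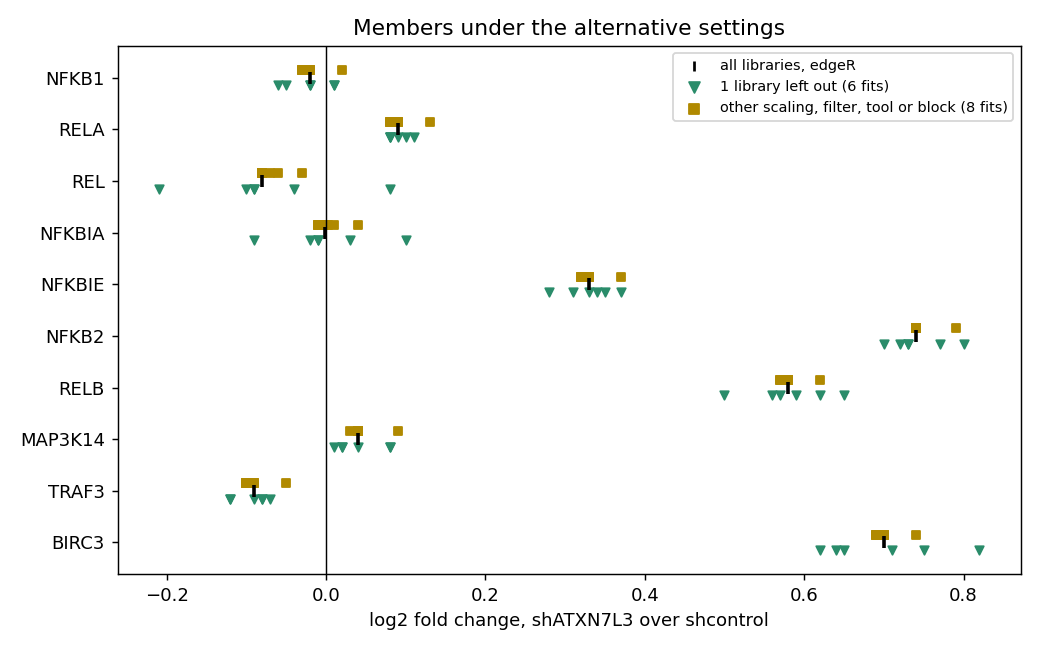
Log2 fold change of each member (x axis) with all libraries, with 1 library left out in turn (triangles) and under 8 other choices of scaling, filter, tool or block (squares). NFKB2 (0.70 to 0.80), RELB (0.50 to 0.65) and BIRC3 (0.62 to 0.82) stay above 0.49 throughout, while NFKB1, REL and NFKBIA lie on both sides of 0.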

How the data were processed

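RNA from 6 libraries of HCCLM3 cells was extracted with Trizol and selected for poly-A tails, per the labels' protocols. The authors deposited raw read counts per gene symbol with exon coordinates and lengths. Per the submitters' processing notes, the build was GRCh38 and the tools were edgeR 3.12.1, Subread 1.5.1 with featureCounts, STAR 2.5.3a and Trimmomatic 0.36. Neither the strand setting nor the treatment of multiply matched reads is given in those sources. From the deposited counts, genes were kept with filterByExpr (minimum count 10, minimum total 15), scaled by TMM and compared with edgeR 4.0.16 in R 4.3.3 (glmQLFit, glmQLFTest, group as the only term). The SE is the log2 fold change divided by the square root of F, an approximation; 95% intervals use the total degrees of freedom of the fit. CPM for each library use TMM-scaled library sizes, and log2 CPM a prior count of 2. The procedure was tested on simulated data. The alternatives were 3 other scalings, 2 other filters, DESeq2 1.42.0, limma 3.58.1 (voom), a replicate block and each library left out. The members and lists were chosen with earlier results of these data known. Named genes are the members, ATXN7L3, up to 4 called genes of each list with the smallest p (or the 2 most abundant where 0 passed) and the 3 genes most like each called member. Some genes that this rule names are not reported here. LTBR, MALT1, BTRC, CHUK, IKBKG, TNFAIP3, XIAP, BIRC5, ICAM1 and the marker genes were named in addition after their values were seen.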

Additional observations from a re-analysis of the deposited data

How the results depend on the processing

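The count of 3 members higher and 0 lower held under all 14 alternatives, the replicate block included. DESeq2 called 1405 genes higher over the transcriptome, against 2182; leaving out single libraries gave 1543 to 2224 higher and 1547 to 2257 lower (2150 with all). The canonical median moved from -0.0018 to 0.04 with library size alone and ran from -0.01 to 0.10 with single libraries left out; the noncanonical median ran from 0.50 to 0.62. Among the members, signs turned in 3 whose values lay near 0: NFKB1 with library size alone (0.02) and without shATXN7L3 replicate 2 (0.01) or shcontrol replicate 2 (0.01), REL without shcontrol replicate 3 (0.08), and NFKBIA with library size alone (0.04), limma voom (0.01), the replicate block (0.0028) or without shATXN7L3 replicate 3 (0.03) or shcontrol replicate 3 (0.10); the cause was not tested. With single libraries left out the lowest values were -0.06 for NFKB1, -0.21 for REL and -0.09 for NFKBIA. Same-numbered libraries did not deviate together (r of -0.016, 0.00514 and 0.0442 over 17935 genes), so the numbers were not taken as pairs; with the replicate block 2188 genes were higher and 2140 lower. Depth limits RELB and NFKBIE, with 46 to 93 counts per library.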
